A study of Homo sapiens with 33 samples.

Results

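Expression of 8 genes of the ETS transcription factor family was followed in 3 head and neck squamous cell carcinoma (HNSCC) cell lines during cetuximab treatment. The genes were taken by symbol from the deposited table and were chosen with earlier results of these data known. They are ETV1, ETV4 and ETV5, which form the PEA3 group, together with ETS1, ETS2, ELK3, ELF3 and EHF. Counts of these genes that passed a test therefore describe a chosen set. All 8 were found among the 56470 gene symbols of the table, and all 8 passed the filter on low counts in every comparison. SCC1, SCC6 and SCC25 are established lines, and each was sampled daily with 100 nM cetuximab (CTX), an antibody that blocks EGFR, on days 1 to 5 or with PBS, the untreated control, on days 0 to 5. This gave 5 CTX and 6 PBS libraries of poly(A) RNA per line, 33 in all, with medium and agent renewed each day. Per the labels, SCC1 and SCC25 were grown with hydrocortisone at different concentrations and SCC6 without it. Among the SCC6 libraries with CTX none is labelled day 1 while 2 carry the label day 2, and this pair is named 2a and 2b here. Each line, treatment and day is otherwise 1 library of 1 line, so days stand in for replicates, and p-values measure the spread between libraries of a group, culture time included.

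ETS factors share a DNA-binding domain that reads a GGAA core, and many are effectors of the RAS-ERK cascade that EGFR feeds. Transcription of the PEA3 genes is held down by the repressor CIC, which ERK inactivates. ETS1 and ETS2 are phosphorylated by ERK, ELK3 is a ternary complex factor that acts with SRF, and ELF3 and EHF are epithelial members known from squamous and glandular differentiation.

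The RefSeq promoter table on GRCh38.p14 held windows for 5 of the 8 genes, ETV1, ETS2, ELF3, ELK3 and EHF, with 13 windows from 250 bases before to 50 bases after a transcription start. A set of 3 motifs was searched on both strands: the CIC octamer (TGAATGAA or TGAATGGA), an ETS site (CCGGAAGT) and an AP-1 site (TGACTCA), none of which overlapped another. They occurred in 2.63%, 4.14% and 4.95% of all 35116 windows of this length. Among the 13 windows only 1, at an ETV1 start, held any of them. The 250 bases before that start are shown because ETV1 belongs to the group that CIC represses, with the octamer, whose first base lies at position -125 from the start, in capitals:
ETV1, GRCh38.p14 chr7:13991426-13991675, minus strand: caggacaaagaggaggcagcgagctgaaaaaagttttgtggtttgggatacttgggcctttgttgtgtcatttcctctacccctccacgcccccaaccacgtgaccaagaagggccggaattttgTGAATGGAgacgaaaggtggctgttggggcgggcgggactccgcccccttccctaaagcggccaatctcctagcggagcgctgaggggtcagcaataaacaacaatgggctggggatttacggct
The match is a description of letters, and the counts per gene do not tell which start was used.

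On GRCh37, in the GENCODE annotation, the PEA3 genes lie at chr7:13930854-14031050 (ETV1), chr17:41605212-41656988 (ETV4) and chr3:185764103-185828107 (ETV5), all on the minus strand. ETS1 lies at chr11:128328656-128457453 on the minus strand, and ETS2 at chr21:40177107-40196879, ELK3 at chr12:96588153-96663602, ELF3 at chr1:201977073-201986311 and EHF at chr11:34642640-34684835 on the plus strand. Counts sum the transcripts of a gene, exons and UTRs together. ETV4 overlaps DHX8 on the opposite strand (72.1 to 112.9 CPM over the libraries), and ELF3 overlaps its antisense RNA ELF3-AS1 (0.13 to 2.36 CPM). ETV5 overlaps DGKG on its own strand (0.026 to 31.1 CPM) and ETV5-AS1 on the opposite strand (0 to 0.27 CPM). The kit marked strand, but the strand setting of the counting is not given in the sources used here, so these 3 genes carry that uncertainty. The overlap of ETV5 with DGKG does not depend on that setting.

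Library totals ranged from 28508539 to 80727185 estimated counts, and the highest were those of SCC6 CTX days 4 and 5. These 2 libraries alone made up 1 of the 5 flow cells named in the labels. In SCC1, PBS of days 0 to 4 shared a flow cell and PBS of day 5 shared another with all CTX libraries, so that a fit with flow cell as a covariate rests on PBS of day 5 there. In SCC6, PBS of days 0 and 1 was on the flow cell of SCC1 PBS day 5. PBS of days 2 to 5 was on another, with CTX libraries 2a, 2b and day 3. With the covariate, CTX against PBS within SCC6 therefore rests on the libraries of that shared flow cell. In SCC25, CTX of days 3 to 5 was on a different flow cell from the rest. With the covariate, CTX against PBS within SCC25 therefore rests on CTX of days 1 and 2 against PBS of days 1 to 5. All 8 squamous epithelial markers examined had a mean of at least 1 CPM in every group. Of these, KRT5, KRT14 and DSG3 were low in SCC6, with means of 2.38, 3.95 and 2.87 CPM with PBS and 12.3, 5.19 and 1.46 CPM with CTX. The 4 leukocyte markers summed to at most 7.23 CPM and the 3 endothelial markers to at most 2.78 CPM in any library. CD14 alone reached 7.16 CPM in SCC1 with CTX. The sum of the 4 fibroblast markers was higher with CTX in every line (12.2 to 21.8 against 32.5 to 90.3 CPM in SCC1, 2.49 to 4.74 against 8.51 to 97.2 in SCC6, and 78.7 to 98.9 against 144 to 206 in SCC25). COL1A1 carried the rise in SCC1 and SCC6, and LUM most of it in SCC25. There the LUM mean went from 29.1 to 84.2 CPM, that of DCN from 5.53 to 10.9 CPM, and that of COL1A1 from 53.5 to 70.8 CPM with overlap. The part of this sum in the results below was not tested. Levels of the ETS genes are given as CPM, counts scaled to library size with TMM factors, and are compared between libraries and not between genes. In bulk RNA, fewer cells that express a gene and less RNA per cell cannot be told apart.

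In SCC1, 5 of the 8 genes passed the test of CTX against PBS (edgeR quasi-likelihood test, Benjamini-Hochberg adjusted p under 0.05 over all genes tested), where 44.8% of all genes passed. ETV4, ETS1, ELK3 and EHF were lower with CTX (22.1% of all genes) and ETS2 was higher (22.7%). The groups did not overlap for 4 of the genes (31.3% of all genes). In SCC6, 6 of 8 passed against 30.1% of all genes. ETV1, ETV4, ELF3, ELK3 and EHF were lower (14.6%), ETS2 was higher (15.6%), and 5 genes did not overlap between the groups (19.1%). In SCC25, 5 of 8 passed against 18.3% of all genes, all of them lower with CTX: ETV1, ETV4, ETV5, ETS1 and ELK3 (9.5% of all genes were lower and 8.8% higher, 1815 and 1681 genes, against 1295 and 2101 with upper-quartile scaling and 1217 and 2261 with library totals alone). Of these, 3 had no overlap between the groups (14.7%). The median log2 fold changes of the 8 genes had the values -0.20 for SCC1, -1.07 for SCC6 and -0.42 for SCC25, beside medians over all genes tested of 0.021, 0.0039 and 0.0062. ETV4 and ELK3 were lower with CTX in all 3 lines, although the fall of ETV4 in SCC1 did not pass with flow cell as a covariate.

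**Figure D1:**
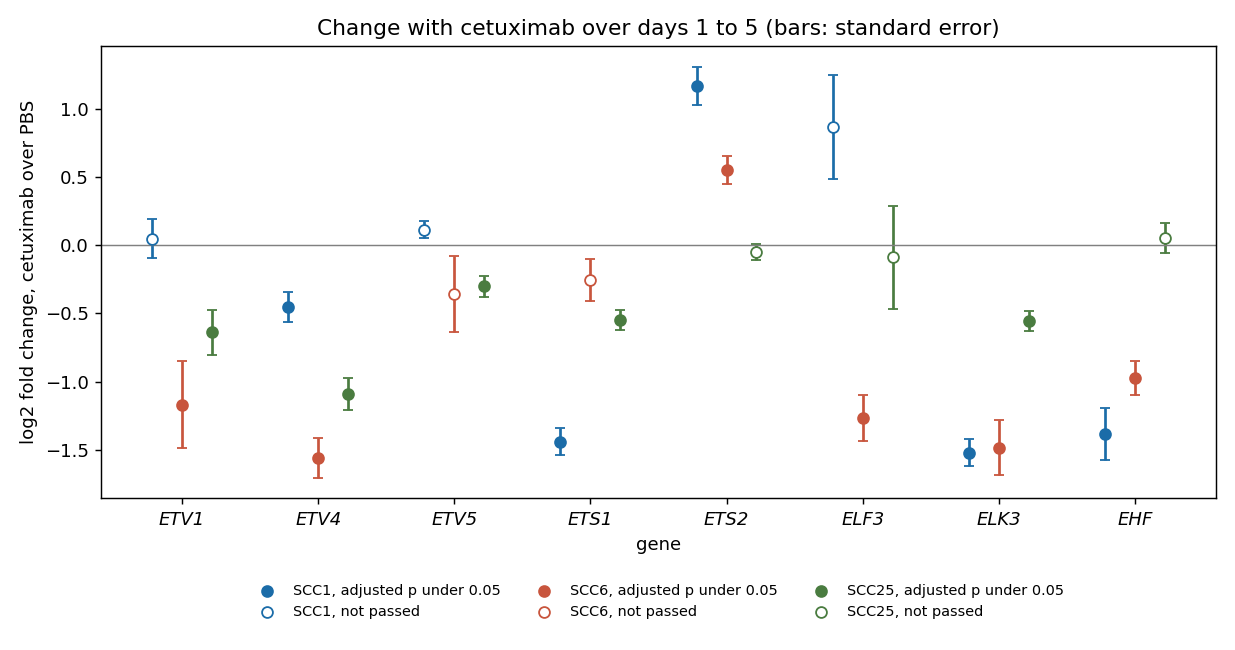
Log2 fold change of CTX over PBS on days 1 to 5 (vertical axis) for each gene (horizontal axis) and line (colour), with 5 libraries per group. Points are edgeR estimates, bars are standard errors, and filled points passed at an adjusted p under 0.05. ETV4 and ELK3 lie below 0 with filled points in all 3 lines, while ETS2 lies at 1.17 in SCC1, 0.55 in SCC6 and -0.05 in SCC25.

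Whether the change with CTX differed between lines was tested directly over the 30 libraries of days 1 to 5. Line and medium cannot be told apart in these tests. Between SCC1 and SCC6, 5 of the 8 genes differed (19.3% of all genes): ETV1, ETV4, ETS1, ETS2 and ELF3. Between SCC1 and SCC25, 5 differed (8.52% of all genes): ETV4, ETS1, ETS2, ELK3 and EHF. Between SCC6 and SCC25, 3 differed (17.5% of all genes): ETS2, ELK3 and EHF. With day as a block, 6 genes differed between SCC6 and SCC25, the added genes being ETV1, ETV4 and ELF3 (adjusted p = 0.028, 0.034 and 0.0016), and ETV1 and ELF3 were added between SCC1 and SCC25 (adjusted p = 0.026 and 0.017). Without that block ETS2 was the gene whose change differed in all 3 pairs of lines, with it ETV1, ETV4 and ELF3 did so too, and with flow cell as a covariate ETS2 passed only between SCC1 and SCC25.

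ETV4, a PEA3 factor linked to invasion and matrix protease transcription, had the largest fitted fall of the 8 genes in SCC6 and in SCC25. In SCC6, PBS libraries of days 1 to 5 held 54.6, 40.1, 40.7, 40.4 and 32.1 CPM. The CTX libraries held 15.2 (2a), 11.9 (2b), 14.4 (day 3), 16.6 (day 4) and 13.3 CPM (day 5). Every CTX library lay below the lowest PBS library, and the level was 2.94-fold lower (log2 fold change -1.56, SE 0.15, adjusted p = 2.77e-05). In SCC25, the PBS libraries held 46.6, 50.6, 42.8, 37.2 and 33.4 CPM and the CTX libraries 21.0, 23.4, 17.4, 18.9 and 18.6 CPM on the same days. The groups again did not overlap, at a 2.13-fold lower level (-1.09, SE 0.12, adjusted p = 1.9e-04). In SCC1, 58.3, 59.5, 55.3, 52.8 and 45.2 CPM with PBS stood beside 48.7, 43.9, 38.1, 33.1 and 33.1 CPM with CTX. There CTX was lower on each day but its day 1 library lay above PBS of day 5, and the fall was 1.37-fold (-0.45, SE 0.11, adjusted p = 0.0056). With flow cell as a covariate the SCC1 value was -0.18 (adjusted p = 0.49). The fall was smaller in SCC1 than in SCC6 by 1.08 on the log2 scale (SE 0.19, adjusted p = 8.8e-05) and than in SCC25 by 0.62 (SE 0.19, adjusted p = 0.031). The latter passed no longer without any 1 of 9 libraries, such as CTX of day 1 in SCC1 (0.54, adjusted p = 0.067), without the filter on low counts (adjusted p = 0.055) or with flow cell as a covariate (adjusted p = 0.10).

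ETV1, a PEA3 factor known as an oncogene in prostate and stromal tumours, passed the test in SCC6 and SCC25. Its SCC1 levels were 11.9, 9.26, 10.6, 10.5 and 9.51 CPM with PBS and 15.3, 9.88, 10.1, 9.47 and 8.50 CPM with CTX. These overlapped, with CTX higher on 2 days and lower on 3, and the difference did not pass (0.05, SE 0.14, adjusted p = 0.81). In SCC6 it was near the lower limit of measurement, with 1.00, 1.63, 2.28, 2.58 and 2.27 CPM in PBS and 0.77 (2a), 0.44 (2b), 0.65, 1.11 and 1.32 CPM in CTX, the lowest from 14 counts. CTX lay below PBS of the same day throughout, with overlap between the groups, and the level was 2.25-fold lower (-1.17, SE 0.32, adjusted p = 0.017). Without libraries 2a and 2b this was -0.93 (adjusted p = 0.054, an alternative added after the data were seen), and with flow cell as a covariate it was -1.82. In SCC25, PBS held 7.39, 6.36, 6.60, 5.03 and 3.99 CPM and CTX 4.26, 4.40, 3.51, 3.36 and 3.36 CPM. The CTX level was lower on each day and 1.56-fold lower over the course (-0.64, SE 0.16, adjusted p = 0.018), a call lost without PBS of day 3, CTX of day 4 or CTX of day 5 (adjusted p = 0.051 to 0.052) and with flow cell as a covariate (-0.44, adjusted p = 0.21). The change in SCC1 exceeded that in SCC6 by 1.16 (SE 0.32, adjusted p = 0.010), or by 1.97 with flow cell as a covariate. That covariate also set SCC6 below SCC25 (-1.36, adjusted p = 0.0087), which did not pass without it (-0.49, adjusted p = 0.32).

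ETV5, the PEA3 member known for roles in stem and progenitor cells, had the smallest fold change of the 3 PEA3 genes in SCC6 and SCC25. In SCC25 it fell by 0.30 on the log2 scale (SE 0.08, adjusted p = 0.019), from 48.9, 49.1, 52.8, 45.1 and 39.0 CPM with PBS to 36.0, 36.9, 38.1, 40.8 and 39.6 CPM with CTX. The groups approached each other over the days, with CTX above PBS on day 5. That call was lost without PBS of day 1, 2 or 3 (adjusted p = 0.052 to 0.061). SCC1 held 67.9 to 74.0 CPM with PBS and 65.2 to 81.6 CPM with CTX (0.11, SE 0.06, adjusted p = 0.16). Without CTX of day 5, the lowest CTX library, the value was 0.16 (adjusted p = 0.026). SCC6 held 26.8 to 50.6 CPM with PBS and 12.7 to 40.1 CPM with CTX (-0.35, SE 0.28, adjusted p = 0.36), the lowest being library 2b. No difference in the change of ETV5 between lines passed.

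**Figure D2:**
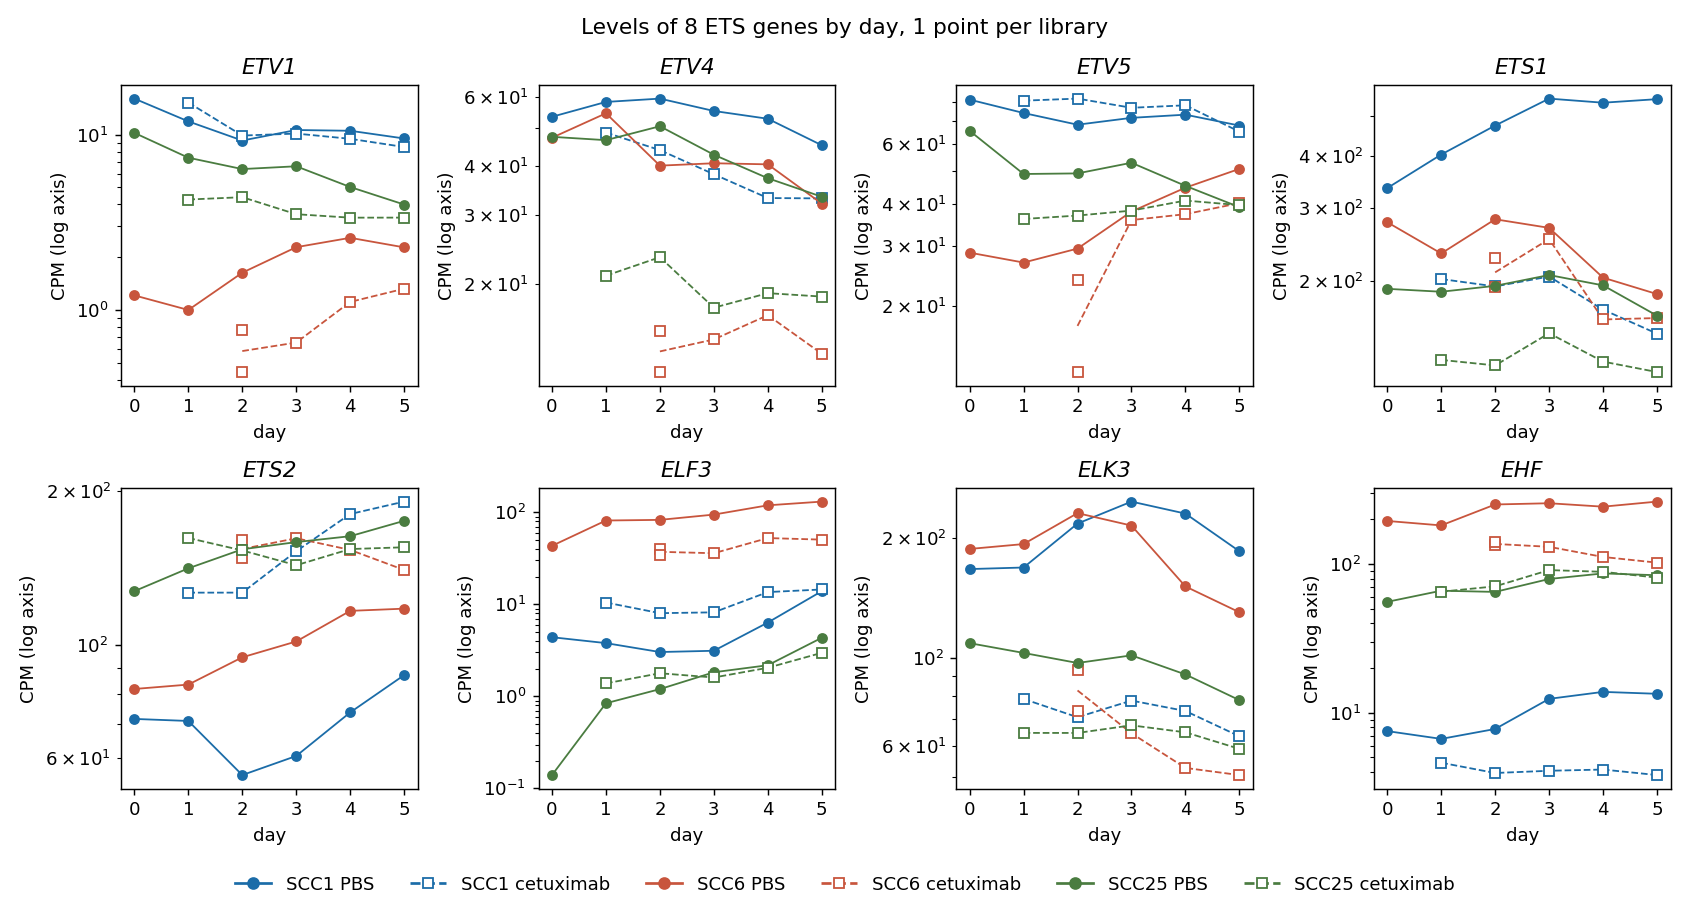
CPM (vertical log axis, its range set for each gene) against day (horizontal axis) for the 8 genes, with 1 point per library, colours for lines, filled circles and solid lines for PBS, and open squares and dashed lines for CTX. In SCC6 both CTX libraries labelled day 2 are drawn at day 2 and the line passes through their geometric mean. ETV4 with CTX stays at 11.9 to 16.6 CPM in SCC6 and at 17.4 to 23.4 CPM in SCC25, below every PBS library of the same line.

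ETS1, an ERK-phosphorylated factor associated with invasive carcinoma, fell most in SCC1. With PBS its SCC1 levels were 403, 473, 550, 537 and 548 CPM, and with CTX 202, 194, 205, 170 and 149 CPM. The groups stood far apart and the daily log2 ratio ran from -0.997 on day 1 to -1.88 on day 5. Over the course it was 2.71-fold lower (-1.44, SE 0.10, adjusted p = 1.03e-06). In SCC25, 188, 194, 206, 195 and 165 CPM with PBS stood above 129, 125, 149, 128 and 120.5 CPM with CTX. These did not overlap either, at a 1.46-fold lower level (-0.55, SE 0.07, adjusted p = 5.0e-04). In SCC6, 233, 281, 268, 203.5 and 186 CPM with PBS stood beside 227 (2a), 194 (2b), 252, 161 and 163 CPM with CTX. The groups overlapped widely and the difference did not pass (-0.25, SE 0.15, adjusted p = 0.24), though it did with day as a block (-0.29, adjusted p = 0.023). The change in SCC1 was lower than in SCC6 (difference -1.21, SE 0.17, adjusted p = 6.6e-06) and than in SCC25 (-0.91, SE 0.17, adjusted p = 7.1e-04).

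ETS2, the close relative of ETS1, rose with CTX in 2 of the lines. In SCC1, 70.9, 55.6, 60.6, 73.7 and 87.2 CPM with PBS stood below 126, 126, 152, 180 and 190 CPM with CTX. The lowest CTX library exceeded the highest PBS library, and the level was 2.24-fold higher (1.17, SE 0.14, adjusted p = 3.8e-05). In SCC6, 83.6, 94.5, 101.5, 116 and 118 CPM with PBS stood below 160 (2a), 148 (2b), 161, 153 and 140 CPM with CTX. Here too the groups were separate, at a 1.47-fold higher level (0.55, SE 0.10, adjusted p = 0.0021). SCC25 held 141 to 175 CPM with PBS and 143 to 162 CPM with CTX, overlapping (-0.05, SE 0.06, adjusted p = 0.61). Between lines, the change in SCC1 exceeded that in SCC25 by 1.20 (SE 0.16, adjusted p = 6.1e-06) and that in SCC6 by 0.59 (SE 0.16, adjusted p = 0.0090), and SCC6 exceeded SCC25 by 0.62 (SE 0.16, adjusted p = 0.0074). With flow cell as a covariate, the SCC1 to SCC6 difference was 0.29 (adjusted p = 0.45) and the SCC6 to SCC25 difference 0.55 (adjusted p = 0.056).

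ELK3, a ternary complex factor that can repress serum response genes, fell in every line. In SCC1 it went from 169, 218, 247, 231 and 186 CPM with PBS to 78.7, 70.8, 77.9, 73.4 and 63.3 CPM with CTX. Each CTX library held less than any PBS library, 2.86-fold less over the course (-1.52, SE 0.10, adjusted p = 7.1e-07). In SCC6 it went from 193, 231, 215, 151 and 130 CPM to 73.5 (2a), 93.0 (2b), 64.4, 52.7 and 50.6 CPM. The groups were separate and the fall was 2.79-fold (-1.48, SE 0.20, adjusted p = 3.0e-04). In SCC25 it went from 103, 96.9, 101.3, 90.7 and 78.1 CPM to 64.6, 64.6, 67.5, 64.8 and 58.9 CPM. This smaller fall, 1.47-fold, was also free of overlap (-0.56, SE 0.07, adjusted p = 5.4e-04). The change in SCC25 was smaller than in SCC1 (SCC1 minus SCC25 -0.98, SE 0.20, adjusted p = 0.0017) and than in SCC6 (SCC6 minus SCC25 -0.91, SE 0.20, adjusted p = 0.0021), neither of which passed with flow cell as a covariate (adjusted p = 0.090 and 0.055). SCC1 and SCC6 did not differ by the test (-0.06, SE 0.20, adjusted p = 0.88).

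EHF, an epithelial ETS factor of squamous and glandular tissue, fell in SCC1 and SCC6. In SCC6, where it was highest, PBS held 182, 252, 257, 243 and 263 CPM and CTX 134 (2a), 140 (2b), 131, 112 and 102 CPM. All CTX libraries lay below PBS, at a 1.96-fold lower level (-0.97, SE 0.12, adjusted p = 1.9e-04). SCC1 had far less, 6.67, 7.77, 12.4, 13.8 and 13.4 CPM with PBS and 4.61, 3.93, 4.07, 4.15 and 3.81 CPM with CTX. The groups did not overlap, and while PBS went up over the days CTX did not, so that the daily log2 ratio ran from -0.53 to -1.82 and the fall over the course was 2.61-fold (-1.38, SE 0.19, adjusted p = 8.8e-05). SCC25 held 65.0 to 86.6 CPM with PBS and 65.2 to 91.1 CPM with CTX (0.05, SE 0.11, adjusted p = 0.78). The changes in SCC1 and SCC6 were both below that in SCC25, with differences of -1.45 (SE 0.22, adjusted p = 3.6e-05) and -1.01 (SE 0.21, adjusted p = 9.7e-04). SCC1 minus SCC6 was -0.44 (SE 0.22, adjusted p = 0.17), or -0.57 without PBS of day 1 in SCC1 (adjusted p = 0.040).

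ELF3, the epithelial ETS factor induced during terminal differentiation of keratinocytes, had opposite signs in SCC1 and SCC6. In SCC6, PBS held 81.4, 82.7, 94.4, 119 and 131 CPM and CTX 40.2 (2a), 34.5 (2b), 35.9, 52.5 and 50.5 CPM. The groups were separate and the level was 2.41-fold lower (-1.27, SE 0.17, adjusted p = 2.4e-04). In SCC1, PBS held 3.79, 3.03, 3.13, 6.34 and 13.9 CPM and CTX 10.5, 8.02, 8.19, 13.6 and 14.5 CPM. CTX was above PBS on each day but by 0.06 on the log2 scale on day 5 and by 1.10 to 1.47 on the others, and the difference did not pass (0.87, SE 0.38, adjusted p = 0.083). It passed without PBS of day 5 (1.42, adjusted p = 8.0e-04) and with day as a block (1.07, adjusted p = 0.0027), and was -0.33 (adjusted p = 0.57) with flow cell as a covariate, which rests on that same library. SCC25 held 0.84 to 4.33 CPM with PBS and 1.39 to 2.97 CPM with CTX (-0.09, SE 0.38, adjusted p = 0.90), a value of 0.39 (adjusted p = 0.38) without PBS of day 5. The change in SCC1 exceeded that in SCC6 by 2.11 (SE 0.48, adjusted p = 0.0018), or by 1.19 (adjusted p = 0.18) with flow cell as a covariate. SCC25 differed from neither by the test, although it differed from both with day as a block (given above), from SCC6 without its own PBS of day 5 (adjusted p = 0.022), and from SCC1 without PBS of day 5 of SCC1 (adjusted p = 0.030). Beside the values of ELF3 and EHF, the sum of the 8 squamous markers went from 1540 to 2576 CPM with PBS to 5421 to 7574 CPM with CTX in SCC1, from 1068 to 2175 to 873 to 1124 CPM in SCC6, and from 11737 to 17248 to 13551 to 16100.5 CPM in SCC25. The members of that sum did not move together. In SCC6, means of KRT5, KRT14 and TP63 rose (TP63 from 39.9 to 93.6 CPM). Those of KRT6A, CDH1, EPCAM, SFN and DSG3 fell there (KRT6A from 262 to 22.9 CPM). The SCC6 groups overlapped for KRT14, KRT6A, CDH1, SFN and DSG3. In SCC1, the EPCAM mean fell from 260 to 156 CPM, SFN was at 488 and 487 CPM, and the others rose, TP63 with overlap. In SCC25, means of TP63, EPCAM and SFN fell and the others rose, with overlap between the groups for all but SFN. The part of these markers in the values of ELF3 and EHF was not tested.

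The level without drug set the lines apart for most of the genes. Over PBS of days 1 to 5, 7 of 8 differed between SCC1 and SCC6 (69.1% of all genes), 8 of 8 between SCC1 and SCC25 (68.4%) and 6 of 8 between SCC6 and SCC25 (72.1%), shares of all genes that are themselves high. Line and medium cannot be told apart in these comparisons, nor can line and flow cell where SCC25 is compared. SCC1 and SCC6 shared a flow cell through 1 PBS library each, and with flow cell as a covariate, an alternative added after the data were seen, 5 of 8 genes passed between them. ETV4 (-0.27, adjusted p = 0.33, in place of 0.37) and ETS2 (0.058, adjusted p = 0.83, in place of -0.57) then lost the call and changed sign, so that their order in these 2 lines depends on that covariate. ETV1, ETV5 and ETS1 were highest in SCC1, as was ETV4 without the covariate. For ETV1 the order was SCC1 (10.4 ± 1.05 CPM, SD, n = 5), SCC25 (5.87 ± 1.35) and SCC6 (1.95 ± 0.64), each step passing the test. ETV4 (54.2 ± 5.67, 42.1 ± 6.91 and 41.6 ± 8.11 CPM) had no difference by the test between SCC25 and SCC6 (adjusted p = 0.92), and ETV5 (71.0 ± 2.76, 47.0 ± 5.21 and 37.9 ± 10.0 CPM) had none there either (adjusted p = 0.055), although 5 of the alternative settings called it, as did the fits without PBS of day 5 in SCC25 or of day 4 or 5 in SCC6 (adjusted p = 0.0060 to 0.034). The step of ETV4 from SCC1 passed no longer without PBS of day 5 in SCC6 (adjusted p = 0.052), or, against SCC25, without PBS of day 4 or 5 in SCC25 or of day 2 in SCC1 (adjusted p = 0.052 to 0.069). ETS1 stood at 502 ± 63.7 CPM in SCC1, 234 ± 40.8 in SCC6 and 190 ± 15.4 in SCC25 (adjusted p of SCC6 against SCC25 = 0.022, or 0.11 with library totals alone), a step lost without PBS of day 5 in SCC25 or of day 2 or 3 in SCC6 (adjusted p = 0.061 to 0.070) and with no filter on low counts (adjusted p = 0.054).

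The other 4 genes had other orders. ETS2 was lowest in SCC1, with 69.6 ± 12.3 CPM (SD, n = 5), then 103 ± 14.5 in SCC6 and 158 ± 12.3 in SCC25, each step passing without the flow cell covariate. ELK3 was similar in SCC1 and SCC6 (210.1 ± 32.4 and 184 ± 42.7 CPM, adjusted p = 0.28, or 0.023 with library totals alone) and lower in SCC25 (94.0 ± 10.0). The epithelial factors differed most and shared SCC6 as the highest line. EHF was at 239 ± 32.9 CPM in SCC6, 76.3 ± 10.1 in SCC25 and 10.8 ± 3.34 in SCC1, a 22.3-fold difference between SCC6 and SCC1 (adjusted p = 2.2e-12), whose log2 value, SCC1 over SCC6, was -4.48, or -3.77 with flow cell as a covariate. ELF3 was at 102 ± 22.2 CPM in SCC6, 6.04 ± 4.60 in SCC1 and 2.08 ± 1.37 in SCC25, a 48.9-fold difference between SCC6 and SCC25 (adjusted p = 1.2e-08). SCC1 over SCC6 it was -4.08 on the log2 scale, or -2.55 with flow cell as a covariate (adjusted p = 0.0030). Its step from SCC1 to SCC25, 1.53 on the log2 scale, was 0.96 without PBS of day 5 in SCC1 and still passed.

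Levels without drug also differed by day, which was fitted as a linear slope over the 6 PBS libraries of days 0 to 5 in log2 units per day. Day and flow cell were linked in SCC6, where days 0 and 1 were on another flow cell than the later days, and in SCC1, where day 5 was, whereas all PBS libraries of SCC25 shared a flow cell. In SCC1, 1 of 8 genes passed (2.49% of all genes), ETS1, which rose from 334 CPM on day 0 with a slope of 0.14 (SE 0.03, adjusted p = 0.044). It passed no longer without PBS of day 0, 1, 2, 3 or 4 (adjusted p = 0.057 to 0.22). In SCC6, 6 of 8 passed (32.7% of all genes). ELF3 rose from 43.2 CPM on day 0 (slope 0.26, SE 0.04), ETV1 from 1.21 CPM (0.25, SE 0.07), ETV5 from 28.7 CPM (0.18, SE 0.03) and ETS2 from 81.9 CPM (0.11, SE 0.02), while ETV4 fell from 47.2 CPM (-0.13, SE 0.04) and ETS1 from 277 CPM (-0.11, SE 0.03), with adjusted p from 0.0040 to 0.033. In SCC25, 7 of 8 passed (10.7% of all genes). ELF3 rose from 0.14 CPM, or 7 counts, on day 0 to 4.33 CPM on day 5 (slope 0.71, SE 0.08, adjusted p = 2.1e-04), EHF from 55.7 CPM (0.13, SE 0.02) and ETS2 from 127 CPM (0.09, SE 0.02). The 3 PEA3 genes and ELK3 fell there: ETV1 from 10.2 CPM (-0.24, SE 0.03), ETV4 from 47.5 CPM (-0.11, SE 0.03), ETV5 from 65.6 CPM (-0.11, SE 0.03) and ELK3 from 109 CPM (-0.08, SE 0.02). With flow cell as a covariate, an alternative added after the data were seen, 4 of 8 passed in SCC6: ELF3 (0.29, adjusted p = 0.049), ETV5 (0.23, adjusted p = 0.036), ETS1 (-0.22, adjusted p = 0.012) and ELK3 (-0.27, adjusted p = 0.019). ETV1 (0.13, adjusted p = 0.62), ETV4 (-0.06, adjusted p = 0.57) and ETS2 (0.11, adjusted p = 0.12) did not. In SCC1 it added ELK3 and EHF (0.15 and 0.26, adjusted p = 0.033 and 0.026) to ETS1 (0.18, adjusted p = 0.014). ELF3 thus rose over days in SCC6 with or without that term. It also rose in SCC25, where PBS libraries shared a flow cell and the term could not be fitted. ETV5 rose in SCC6 and fell in SCC25.

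Leaving out 1 library ended several of these slopes. Without PBS of day 0 only 2 of 8 passed in SCC6, and without PBS of day 0 or day 5 only 4 of 8 in SCC25. In SCC6, ETV1 was lost without day 0, 1 or 4 (adjusted p = 0.080 to 0.093), ETV4 without day 0, 1 or 5 (0.053 to 0.15), ETS1 without day 0, 4 or 5 (0.099 to 0.23) and with upper-quartile scaling (0.058), and ETS2 without day 0 (0.052), while ELK3 passed without day 3 (0.047) and EHF without day 2 (0.021). In SCC25, ETV4 was lost without day 4 or 5 (adjusted p = 0.050 and 0.15), ETV5 without day 0 or 5 (0.21 and 0.10), ETS2 without day 0 (0.081) and ELK3 without day 0, 1 or 5 (0.063 to 0.16). In SCC1, ELK3 (0.14, adjusted p = 0.037) and EHF (0.25, adjusted p = 0.031) passed without day 5. Day 5 alone was on another flow cell there, so this and the flow cell covariate are not separate checks. The ELF3 slope passed without each library in turn in SCC6 and in SCC25, as did those of ETV1 and EHF in SCC25 and ETV5 in SCC6.

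**Figure D3:**
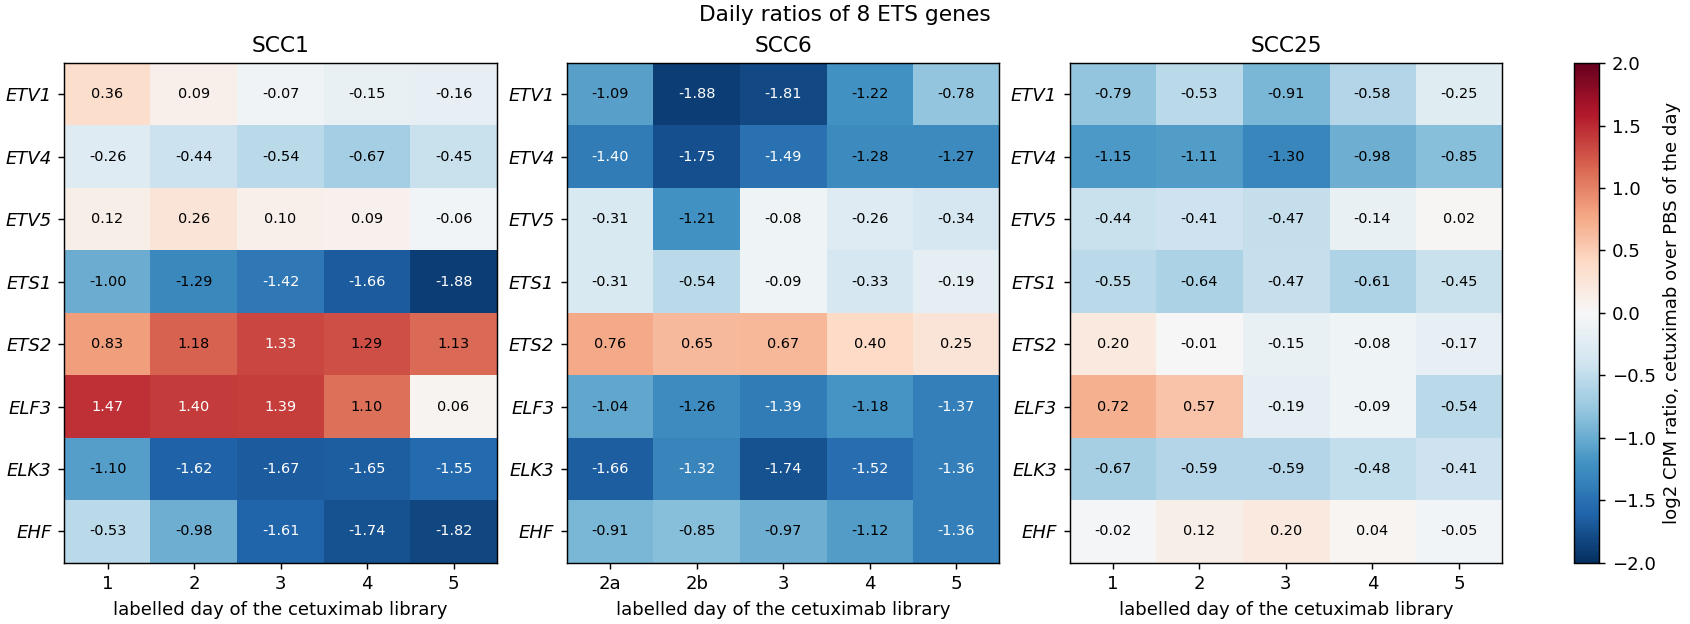
Log2 ratio of CTX to PBS CPM of the same line and day (colour and printed value) for the 8 genes (vertical axis) by labelled day of the CTX library (horizontal axis). In SCC6 both libraries labelled day 2, 2a and 2b, are set against PBS of day 2. ETS1 in SCC1 goes from -0.997 to -1.88 and ETV5 in SCC25 from -0.44 to 0.02, while ELK3 in SCC25 stays between -0.41 and -0.67.

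Whether the change grew or shrank was tested as days 4 and 5 against days 1 to 3. None of the 8 genes passed in any line, and no gene of the table did (0% of all genes in SCC1, 0% in SCC6 and 0% in SCC25), although 1458, 5626 and 599 genes had an unadjusted p under 0.05 and DESeq2 called 31, 2838 and 3. In SCC6 the late CTX libraries and their flow cell cannot be told apart. Of the 8 genes, those under 0.05 before adjustment were ETS1 (-0.50, SE 0.15) and ELF3 (-0.93, SE 0.37) in SCC1, ETS2 (-0.40, SE 0.14) and EHF (-0.45, SE 0.18) in SCC6, and ETV5 (0.36, SE 0.12) in SCC25. ETS1 in SCC1 passed with no filter on low counts (adjusted p = 0.047) and ETS2 in SCC6 passed with DESeq2 (adjusted p = 0.044).

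Other genes of the ETS family were counted in the same way. Of 20 other family genes 14 were measured in each line, and 4 were lower and 4 higher with CTX in SCC1, 2 lower and 1 higher in SCC6, and 2 lower and none higher in SCC25. The shares of all genes lower and higher were 22.1% and 22.7% for SCC1, 14.6% and 15.6% for SCC6, and 9.5% and 8.8% for SCC25. The list's median log2 fold changes were 0.08, 0.10 and -0.05. The falls with the largest size were those of FLI1 and ERG, known for vascular and blood cell roles, in SCC1 (-1.99, SE 0.15 and -1.31, SE 0.21) and SCC25 (-0.54, SE 0.09 and -0.62, SE 0.10). FLI1 went from 19.4 ± 2.78 to 4.84 ± 1.14 CPM (SD, n = 5) in SCC1 and from 29.1 ± 3.31 to 20.1 ± 1.83 CPM in SCC25. ERG went from 2.52 ± 0.15 to 1.01 ± 0.34 CPM and from 14.1 ± 1.26 to 9.16 ± 1.06 CPM. In SCC1, ETV7 (0.60, SE 0.21) and ELF1 (0.40, SE 0.09) rose. In SCC6, GABPA (-0.38, SE 0.13) and ETV3, an ERK-linked repressor (-0.30, SE 0.09), fell and ETV6, a repressor of the family, rose (0.62, SE 0.10). ETV3 also fell in SCC1 (-0.23, SE 0.06).

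Upstream of the ETS genes, 18 of 19 listed genes of the RAS-ERK cascade and of the regulators of ETS factors were measured. With CTX, SCC1 had 3 of them lower and 4 higher, SCC6 had 2 lower and 2 higher, and SCC25 had 1 lower and 1 higher, beside 22.1% and 22.7% of all genes for SCC1, 14.6% and 15.6% for SCC6, and 9.5% and 8.8% for SCC25. The list had median log2 fold changes of 0.045, 0.11 and 0.0023. ATXN1, a partner of the PEA3 repressor CIC, rose in every line: from 22.3 ± 4.49 to 48.3 ± 2.45 CPM in SCC1 (1.12, SE 0.12), from 36.9 ± 8.75 to 117 ± 15.98 CPM in SCC6 (1.64, SE 0.15) and from 56.3 ± 1.66 to 70.7 ± 3.75 CPM in SCC25 (0.32, SE 0.05). MAP2K1, the kinase above ERK, fell in every line (-0.66, SE 0.07, -0.50, SE 0.10 and -0.33, SE 0.05). MAPK3, an ERK kinase, rose in SCC1 (0.29, SE 0.06) and SCC6 (0.34, SE 0.11), and EGFR, the target of cetuximab, rose in SCC1 (0.58, SE 0.07). CIC itself passed in no line. It had 0.17 (SE 0.08, adjusted p = 0.12) in SCC1, 0.74 (SE 0.34, adjusted p = 0.13) in SCC6 and -0.20 (SE 0.19, adjusted p = 0.50) in SCC25. Its SCC6 levels spread widely, at 36.5 ± 18.0 CPM with PBS and 61.8 ± 29.7 CPM with CTX.

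Most of the listed genes transcribed under ERK signalling fell in each line. Of the 12 listed, 9 of 11 measured were lower in SCC1 (22.1% of all genes), 10 of 12 in SCC6 (14.6%) and 9 of 12 in SCC25 (9.5%), with none higher and medians of -1.93, -1.40 and -0.80. EGR1, an immediate early factor, had log2 fold changes of -3.64 (SE 0.31) in SCC1, -4.35 (SE 0.24) in SCC6 and -2.44 (SE 0.18) in SCC25. DUSP6, the phosphatase that acts on ERK, changed by -3.19 (SE 0.22), -1.99 (SE 0.12) and -1.22 (SE 0.07) in the same order. FOSL1, an AP-1 subunit, changed by -2.68 (SE 0.18) in SCC1, -1.96 (SE 0.15) in SCC6 and -1.11 (SE 0.12) in SCC25. PHLDA1 changed by -3.66 (SE 0.24) in SCC1, -2.45 (SE 0.22) in SCC6 and -0.61 (SE 0.07) in SCC25. SPRY4, a feedback inhibitor, changed by -1.93 (SE 0.19) in SCC1, -2.13 (SE 0.13) in SCC6 and -0.68 (SE 0.06) in SCC25. DUSP4 changed by -2.67 (SE 0.22) in SCC1, -1.53 (SE 0.14) in SCC6 and -1.62 (SE 0.09) in SCC25.

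Among 10 protease and matrix genes described as ETS targets, SCC1 had 6 lower and 1 higher (22.1% and 22.7% of all genes), SCC6 had 5 lower and 3 higher (14.6% and 15.6%), and SCC25 had 6 lower and 3 higher (9.5% and 8.8%), with medians of -1.27, -1.36 and -0.30. MMP1, a collagenase, changed by -5.72 (SE 0.63) in SCC1 and by -7.04 (SE 1.04) in SCC6. In SCC25 its mean was 73.1 CPM with PBS and 117 CPM with CTX, which did not pass (0.68, SE 0.30, adjusted p = 0.14). MMP9, a gelatinase, changed by -3.22 (SE 0.24) in SCC1 and by -1.56 (SE 0.32) in SCC25, and did not pass in SCC6 (-1.03, SE 0.47). MMP3, a stromelysin, changed by -4.05 (SE 0.30) in SCC1, -1.85 (SE 0.35) in SCC6 and -1.48 (SE 0.25) in SCC25. PLAUR, the urokinase receptor, changed by -1.95 (SE 0.19), -2.39 (SE 0.36) and -0.46 (SE 0.11) in the same order. Others of the list rose. MMP14 did so in SCC6 (2.16, SE 0.42) and SCC25 (0.29, SE 0.08), and MMP13 in SCC6 (1.46, SE 0.33) and SCC25 (0.52, SE 0.11). MMP7 rose in SCC1 (2.19, SE 0.44, from 0.088 to 0.42 CPM) and in SCC25 (0.97, SE 0.24). MMP14 and MMP13 in SCC1 (-0.0015 and -0.53) and MMP7 in SCC6 (-0.64) did not pass.

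Keratinocyte differentiation genes, some of them described as targets of ELF3 and EHF, were measured in different numbers in the lines, and the lists were not tested against each other. None of 8 measured genes was lower and 4 were higher in SCC1 (22.1% and 22.7% of all genes), 7 were lower and 1 higher of 12 in SCC6 (14.6% and 15.6%), and 2 were lower and none higher of 9 in SCC25 (9.5% and 8.8%), with medians of 0.65, -1.47 and -0.12. In SCC6 the small proline-rich genes of the cornified envelope fell, with log2 fold changes of -7.14 (SE 0.57) for SPRR2A, -5.15 (SE 0.82) for SPRR1B, -4.82 (SE 0.48) for SPRR1A and -4.40 (SE 0.42) for SPRR3. The CTX means of SPRR2A and SPRR1A were 0.046 and 0.087 CPM, so that their sizes depend on few counts. In SCC1, KRT13, a keratin of oral mucosa, rose from 3.40 ± 2.68 to 166 ± 111 CPM (5.63, SE 0.60), and TGM1 (1.96, SE 0.29) and KLF4 (0.33, SE 0.11) rose too. FLG rose at low levels in SCC1 (2.14, SE 0.37, from 0.13 to 0.58 CPM) and SCC6 (1.68, SE 0.27, from 0.24 to 0.76 CPM). In SCC25, SPRR1B (-1.25, SE 0.24, from 0.84 to 0.36 CPM) and FLG (-0.47, SE 0.15) fell.

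**Figure D4:**
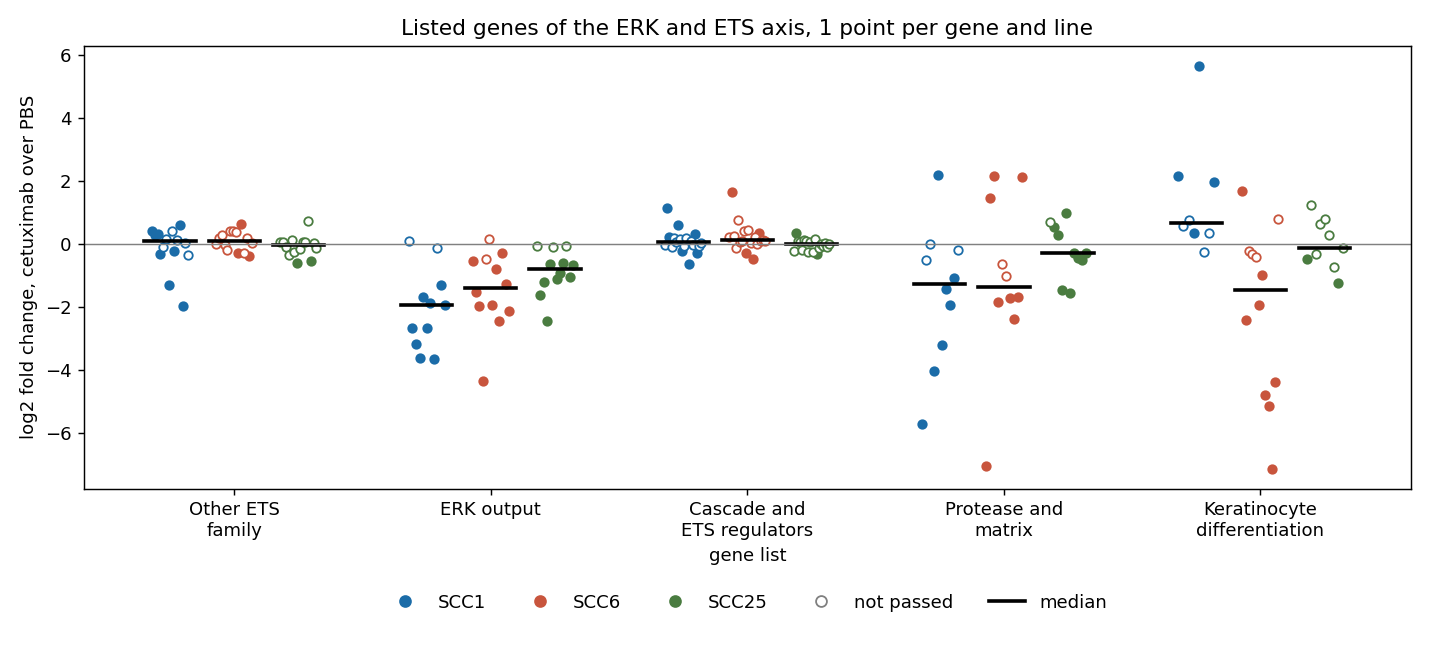
Log2 fold change of CTX over PBS (vertical axis) for the genes of 5 lists (horizontal axis), with 1 point per measured gene and line, filled where the adjusted p was under 0.05, and a black bar at the median of the list. The medians of the ERK output list are -1.93, -1.40 and -0.80 in SCC1, SCC6 and SCC25, while those of the cascade list lie between 0.0023 and 0.11.

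Likeness to each of the 8 genes was measured as the mean over the lines of Pearson's r of log2 CPM within a line, across 10 libraries per line and 15763 genes measured in all lines. Libraries of a line share treatment and day, so a high r is a description of shared movement over treatment and time. ELK3 was most like LRRC8C (mean r = 0.98), CLMP (0.98) and MRPL15 (0.98), ETV4 was most like AHCY (0.96), WSCD1 (0.94) and YBX1 (0.94), and ETS1 was most like E2F7 (0.95), DIAPH1 (0.92) and KCNQ5 (0.92). For EHF the nearest genes were ZC3H12C (0.95), STK39 (0.94) and CREM (0.94), for ELF3 PLEKHA7 (0.89), PTGES (0.88) and GALNT12 (0.87), and for ETS2 EPAS1 (0.87), SLC6A9 (0.86) and TRAF3IP2 (0.85). ETV1 had the lower values of 0.76 (SMIM3), 0.75 (TSC22D1) and 0.73 (GJA3), and ETV5 had 0.75 (LYRM4), 0.73 (ETV1) and 0.68 (RP11-416I2.1). ETV1 was thus among the 3 genes nearest to ETV5.

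Among themselves, ETV4 and ELK3 moved together in all 3 lines (r = 0.81 in SCC1, 0.89 in SCC6 and 0.95 in SCC25, 10 libraries each), as did ETS1 and ELK3 (0.99, 0.66 and 0.97). ETV4 and ETS2 ran opposite in SCC1 (-0.94) and SCC6 (-0.93), with 0.10 in SCC25. ELF3 and ETV4 had r of -0.83 in SCC1, 0.86 in SCC6 and -0.31 in SCC25.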

How the data were processed

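Poly(A) RNA of 33 libraries was sequenced on an Illumina HiSeq. The table the authors deposited holds estimated counts per gene symbol, made with Salmon (version 0.8.2 in the submitters' processing notes, which also list hg19 and GRCh37) and tximport, and not normalised between libraries. The annotation is not given in the sources used here. Of all values, 63.2% are whole as deposited (tolerance 0), and all were rounded.

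Groups were taken from the labels. In R 4.3.3, edgeR 4.0.16 was run with filterByExpr (minimum count 10), TMM scaling, glmQLFit and glmQLFTest, with Benjamini-Hochberg adjustment over all genes tested and a threshold of 0.05. All tests were two-sided. CTX was compared with PBS over days 1 to 5 within a line, its change between lines over 30 libraries, PBS levels over 15 libraries, early with late days, and PBS slopes over days 0 to 5. SE is the log2 difference divided by the square root of F. CPM used TMM factors over all 33 libraries, so folds fitted within a line can differ slightly from ratios of CPM. Total counts of 28508539 to 80727185 set the precision of each level. No pair of libraries agreed within sampling noise. The scripts were tested on simulated data. Promoter windows came from RefSeq, positions from GENCODE on GRCh37, and tables were handled with pandas 2.3.3, numpy 2.4.6 and matplotlib 3.10.9.

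The labels give PBS and CTX libraries a shared day. Deviations of same-day libraries from the group means correlated at 0.07 to 0.25 in SCC1, 0.16 to 0.33 in SCC25 and -0.09 to 0.36 in SCC6, and day was fitted as a block as an alternative. The other alternatives were DESeq2 1.42.0, its size factors, upper-quartile scaling, library totals alone, no filter, PBS of day 0 added, flow cell as a covariate and each library left out. Those that leave out SCC6 CTX of day 2, or of days 4 and 5, and the flow cell covariate for PBS levels and slopes were chosen after seeing the data.

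The 8 genes and all lists were chosen with earlier results of these data known. The text names all 8 genes, the 3 genes most like each, and up to 4 genes per list and line, being those with the largest absolute log2 fold change among genes that passed with the same sign on each day. Some genes named for a line are given in other lines as well. CIC, which did not pass, was named after its values were seen. A gene of the lists that this rule chose is counted but not reported here by name. Likeness used log2 of CPM plus 0.1.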

Additional observations from a re-analysis of the deposited data

Results flagged for a closer look

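In 2 of 48 groups of 5 libraries 1 library stood apart from the others by Dixon's test, where chance gives about 1 in 20. ETV1 in SCC1 with CTX was at 15.3 CPM on day 1 and at 8.50 to 10.1 CPM in the other 4 libraries. Without that library the log2 fold change of ETV1 in SCC1 was -0.12 (adjusted p = 0.36) in place of 0.05. EHF in SCC6 with PBS was at 182 CPM on day 1 and at 243 to 263 CPM on days 2 to 5. PBS of day 0, which was not in that group, was at 195 CPM and shared the flow cell of day 1. The later days were on another flow cell.

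The change with CTX differed between lines by the test of the difference for 13 pairs of gene and lines. Between SCC1 and SCC6 the log2 differences (SCC1 minus SCC6) were 2.11 for ELF3, -1.21 for ETS1, 0.59 for ETS2, 1.16 for ETV1 and 1.08 for ETV4. Between SCC1 and SCC25 (SCC1 minus SCC25) they were -1.45 for EHF, -0.98 for ELK3, -0.91 for ETS1, 1.20 for ETS2 and 0.62 for ETV4. Between SCC6 and SCC25 (SCC6 minus SCC25) they were -1.01 for EHF, -0.91 for ELK3 and 0.62 for ETS2.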

How the results depend on the processing

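Called values changed sign under 1 setting, flow cell as a covariate, where the PBS level of SCC1 against SCC6 was -0.27 for ETV4 and 0.058 for ETS2 and neither passed. Over 2176 values set against their reported ones, 1245 with 1 library left out and 769 under other settings kept their direction and side of the threshold, 45 and 16 lost a call with the direction kept, 12 and 27 gained one, 38 and 13 uncalled values changed sign by less than their SE, and 4 and 5 by more. With flow cell as a covariate, 3 of the 8 genes differed in their change between SCC1 and SCC6 and 3 between SCC1 and SCC25, in place of 5 each. With day as a replicate block, 6 differed between SCC6 and SCC25 in place of 3, and 6, 7 and 5 passed in SCC1, SCC6 and SCC25 in place of 5, 6 and 5. The period difference gave 1 gene in SCC1 with no filter and 1 in SCC6 with DESeq2 in place of 0. For the PBS slope in SCC1, DESeq2, its size factors and no filter each gave 2 in place of 1, and flow cell as a covariate gave 3. With 1 library left out, 3 to 5 genes passed for CTX in SCC25, and 0 to 3, 2 to 7 and 4 to 7 for the slopes in SCC1, SCC6 and SCC25. The causes were not tested.

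Over all genes, flow cell as a covariate gave 4197 calls in place of 8061 in SCC1, 1417 in place of 3496 in SCC25, and 2359, 949 and 1748 in place of 4128, 1824 and 3750 for the differences between SCC1 and SCC6, SCC1 and SCC25, and SCC6 and SCC25, for which the day block gave 6675, 2996 and 7208. The covariate gave 1657 slopes in place of 474 in SCC1 and 617 in place of 5812 in SCC6. In SCC6 the day block gave 7961 calls in place of 5238, and 2868 were made without CTX of days 4 and 5. For the period difference, no filter gave 202, 3366 and 7 calls and the day block 2470 in SCC6. With 1 library left out, calls ranged from 2193 to 4006 for CTX in SCC25, from 24 to 1575, 1892 to 7137 and 1090 to 2279 for the slopes in SCC1, SCC6 and SCC25, and from 0 to 1424 for the period difference in SCC6. DESeq2 called 1485 slopes in SCC1 in place of 474. Days stand in for replicates, each flow cell holds few of them per group, and low levels, as of ETV1 in SCC6 and ELF3 in SCC25, rest on few counts.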
